A study of Mus musculus with 12 samples.

Results

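TRIM proteins are a family of ubiquitin ligases, and their genes were followed through 24 h of exposure of mouse bone marrow-derived dendritic cells to polymer nanoparticles. Members were all genes whose symbol is Trim followed by a number and at most 1 letter, with symbols taken from the RefSeq accession of each probe. The gene table held 68 such symbols, 51 of them had a matched probe, and 38 were measured among 18407 genes, meaning that a probe stood well above background on every array of at least 1 time. Of the 38, 3 met this at a single time, Trim2 and Trim17 at 24 h and Trim69 at 12 h. A further 13 genes had probes that met this at no time, among them Trim6, Trim30b, Trim31 and Trim65. For the other 17, among them Trim5, Trim23, Trim38 and Trim63, no probe was matched, and they are not analysed here.

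A TRIM protein carries a RING domain that transfers ubiquitin, B-box domains and a coiled coil through which the proteins pair, followed by a variable end that chooses the target. Many members act in innate immunity, where they modify sensors and adaptors of virus recognition or bind viral particles directly, and some of these genes are themselves switched on by interferon. Other members serve in chromatin, in the cytoskeleton of nerve and muscle, or in the removal of damaged proteins.

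The cells came from marrow of female mice aged 6 to 8 weeks and were grown with GM-CSF (20 ng/ml), a growth factor that favours dendritic cells, until day 7. Non-adherent and loosely adherent cells were then taken as immature dendritic cells. The groups were cells labelled 0 h and cells after 6, 12 and 24 h with nanoparticles of γ-PGA, a biodegradable polymer of glutamic acid, at 300 µg/ml, with 3 samples in each group and 12 in all. The series design counts the 3 samples of a time as independent experiments. Untreated cells held for 6, 12 or 24 h were not among the samples, so exposure and time in culture cannot be told apart. Genotype and strain are not named in the labels.

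Every sample had 2 sets of values that did not give the same time course. The first set, called the scanner values, was the log2 intensity on a 1-colour Agilent array over the 75th percentile of that array. The second set, called the value table, was the authors' deposited ratio of each probe to its median at 0 h. Across genes, the scanner arrays labelled 24 h had a mean correlation of 0.991 with the 0 h arrays and 0.91 with the 12 h arrays, and the 0 h arrays had 0.995 among themselves. The 24 h columns of the value table had a mean correlation of 0.896 with the 12 h columns. With each gene centred over the 12 samples of its source, scanner arrays were set against table columns across 18084 genes. The mean correlation of arrays labelled 24 h was -0.0836 to the table's 24 h samples but 0.572 to its 0 h samples. For arrays labelled 6 h it was 0.437 to the table's 6 h samples and 0.482 to its 12 h samples, while for arrays labelled 12 h it was 0.355 to the table's 12 h samples and 0.431 to its 6 h samples. Arrays labelled 0 h were most like the table's 0 h samples, at 0.548. The table's 24 h samples were close to no scanner group, at -0.0363, 0.115 and 0.00164 to arrays labelled 0, 6 and 12 h. Why the sources differ, and whether either holds values under the wrong time, was not tested. Times below are those of the labels, each source is given on its own, and the order of 6 h and 12 h in the scanner values rests on the labels of those arrays. Arrays also lay on 3 slides, each scanned as 1 batch. Slide 1 carried all 0 h arrays and 1 array of 6 h, slide 2 the other 2 arrays of 6 h and 2 of 12 h, and slide 3 the last array of 12 h and all 24 h arrays. Per array, 50.9% to 59.6% of spots exceeded background.

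The cultures were mixed. Of 12 dendritic cell markers, 10 were well above background on every array, with Cd209a on 6 arrays and Flt3 on 9 arrays, and so were all 7 measured granulocyte markers and all 6 measured macrophage or monocyte markers. The summed scanner level of the macrophage markers, in units of the array's 75th percentile, was 209 to 210 at 0 h, 286 to 326 at 6 h, 440 to 490 at 12 h and 208 to 215 at 24 h. In the value table the mean log2 ratio of the same 6 markers was -0.05 to 0.02 at 0 h, -0.60 to -0.48 at 6 h, -0.93 to -0.84 at 12 h and -1.15 to -1.13 at 24 h. A sum follows its brightest genes and a mean log2 ratio weighs all alike, so these measures cannot be compared directly, here or below. The mean scanner log2 level of Cd14 was 5.98 at 0 h and 7.27 at 6 h. That of Ccr2 was 4.12 and -0.52. At 6 h each source called 1 of the 6 markers higher and 2 lower. At 12 h the scanner values called 3 higher and 1 lower, and the deposited ratios 1 higher and 3 lower. The 7 granulocyte markers summed to 293 to 301 at 0 h, 282 to 326 at 6 h, 335 to 383 at 12 h and 294 to 302 at 24 h on the scanner scale. Their mean log2 ratio in the value table was -2.71 to -2.65 at 24 h, and 7 of 7 were called lower there. The 4 measured T or NK cell markers summed to 0.938 to 1.02 at 0 h, 0.405 to 0.568 at 6 h and 0.356 to 0.49 at 12 h. At 24 h the sum was 1.03. These markers did not move together. The mean log2 level of Cd3d, the brightest at 0 h, was -0.61 at 0 h, -2.67 at 6 h and -3.11 at 12 h. That of Cd3e was -2.37, -1.83 and -1.91. Cd3g and Klrb1c were well above background on 5 and 4 arrays. In the value table the mean log2 ratio of the 4 was -0.81 to -0.30 at 6 h and -1.13 to -0.29 at 12 h. The part of these cells in the TRIM values below was not tested, and in bulk samples fewer cells of a type and less RNA per cell cannot be told apart.

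The promoter windows of the members were searched for letters of immune response elements. The interferon-stimulated response element, the site to which interferon-activated factors bind, was searched as a pair of GAAA half-sites with any 2 bases between them, on both strands in windows of 300 bases that span each gene's start, taken from RefSeq (GRCm38.p6). Of the 38 measured members 28 had such a window, and 8 of the 28 held a match: Trim2, Trim12a, Trim12c, Trim21, Trim26, Trim30a, Trim30d and Trim34a. The letters occurred in 3.44% of all 32851 windows and in 3.99% of all 27025 genes. The windows of Trim12a, Trim12c, Trim21, Trim26, Trim30a, Trim30d and Trim34a are shown because these genes were called higher at 12 h against 6 h in the scanner values below. They lie at chr7:104315446-104315745 (minus strand), chr7:104353300-104353599 (minus strand), chr7:102565433-102565732 (minus strand), chr17:36836896-36837195 (plus strand), chr7:104465144-104465443 (minus strand), chr7:104507800-104508099 (minus strand) and chr7:104244207-104244506 (plus strand), and the capitals mark the matched letters, read 5′ to 3′ along the gene's strand.
Trim12a: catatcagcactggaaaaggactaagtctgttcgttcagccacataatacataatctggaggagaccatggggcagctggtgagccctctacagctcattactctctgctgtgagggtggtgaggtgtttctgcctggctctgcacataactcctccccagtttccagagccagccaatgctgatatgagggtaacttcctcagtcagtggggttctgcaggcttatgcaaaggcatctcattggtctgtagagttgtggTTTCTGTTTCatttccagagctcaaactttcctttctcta
Trim12c: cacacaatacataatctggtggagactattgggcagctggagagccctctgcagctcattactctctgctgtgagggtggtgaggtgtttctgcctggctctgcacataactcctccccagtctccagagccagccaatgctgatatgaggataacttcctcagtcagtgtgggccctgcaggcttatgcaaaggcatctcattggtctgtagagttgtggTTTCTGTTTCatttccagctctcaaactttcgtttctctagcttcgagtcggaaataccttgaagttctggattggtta
Trim21: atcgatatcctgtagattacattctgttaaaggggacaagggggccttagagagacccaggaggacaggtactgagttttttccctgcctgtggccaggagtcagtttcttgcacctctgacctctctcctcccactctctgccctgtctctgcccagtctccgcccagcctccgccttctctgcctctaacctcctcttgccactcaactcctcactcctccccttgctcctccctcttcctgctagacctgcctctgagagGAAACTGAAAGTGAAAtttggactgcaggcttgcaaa
Trim26: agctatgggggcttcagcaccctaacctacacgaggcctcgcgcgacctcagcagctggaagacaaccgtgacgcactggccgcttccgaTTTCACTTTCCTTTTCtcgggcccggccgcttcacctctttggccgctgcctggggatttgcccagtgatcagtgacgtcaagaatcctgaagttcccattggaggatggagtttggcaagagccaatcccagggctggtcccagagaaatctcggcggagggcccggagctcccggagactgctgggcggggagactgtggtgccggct
Trim30a: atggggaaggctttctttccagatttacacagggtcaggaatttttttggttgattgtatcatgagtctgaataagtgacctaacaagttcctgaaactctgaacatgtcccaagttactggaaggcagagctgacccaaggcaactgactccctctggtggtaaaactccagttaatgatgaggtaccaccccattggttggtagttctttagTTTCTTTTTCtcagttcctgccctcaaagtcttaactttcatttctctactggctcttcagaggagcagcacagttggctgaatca
Trim30d: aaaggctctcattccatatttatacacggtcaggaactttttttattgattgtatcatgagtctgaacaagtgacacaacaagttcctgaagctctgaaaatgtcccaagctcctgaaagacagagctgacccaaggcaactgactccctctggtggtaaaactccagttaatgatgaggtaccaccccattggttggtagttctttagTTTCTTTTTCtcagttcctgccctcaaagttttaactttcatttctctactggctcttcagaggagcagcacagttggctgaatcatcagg
Trim34a: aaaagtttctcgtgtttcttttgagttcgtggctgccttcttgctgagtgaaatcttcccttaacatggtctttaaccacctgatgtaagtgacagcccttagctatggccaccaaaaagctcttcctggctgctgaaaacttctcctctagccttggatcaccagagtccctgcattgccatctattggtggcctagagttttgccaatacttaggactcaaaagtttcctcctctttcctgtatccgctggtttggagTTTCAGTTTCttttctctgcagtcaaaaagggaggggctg
Trim21 and Trim26 each held a pair of overlapping matches, which appear as a single run of capitals. The windows of the neighbouring paralogs Trim30a and Trim30d were alike at 276 of 295 aligned bases, 93.6%, with the same match in both. Those of the paralogs Trim12a and Trim12c were alike at 188 of 260, 72.3%, again with the same match, so the matches within these pairs are not separate. Whether the probes of these paralogs bind each other's transcripts was not tested. A match is a description of letters and does not show binding. The kappa B letters, GGG and TTTCC with any 2 bases between them, occurred in 0 of the 28 members, beside 1.89% of all genes and 1.63% of windows. The gamma-activated sequence, TTC and GAA with any 3 bases between them, occurred in 2 of the 28, Trim45 and Trim46, beside 9.55% of all genes and 8.3% of windows.

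A gene was called at a Benjamini-Hochberg adjusted p under 0.05 in limma's fit over all genes together with a change of at least 2-fold. At 6 h, 6 of the 38 members were called higher than at 0 h in the scanner values, where 10.2% of all genes were, and 5 were called lower, where 15.9% of all genes were. The value table called 6 higher (13.3% of all genes) and 2 lower (11.8% of all genes). Trim13, Trim21, Trim36 and Trim62 were higher in both sources, where 6.61% of all genes were, and Trim2 and Trim7 were lower in both, where 7.86% were. At 12 h the scanner values called 13 members higher (13.7% of all genes) and 7 lower (16.9% of all genes), and the value table called 8 higher (15.7%) and 2 lower (12.1%). Both sources called Trim13, Trim35, Trim36 and Trim62 higher at 12 h (6.4% of all genes) and Trim7 and Trim59 lower (6.33% of all genes). The scanner calls of Trim2 and Trim7 rest on exposed levels not above background. At 6 h they are bounds of at least 1.73-fold and at least 1.46-fold, and for Trim7 at 12 h at least 1.77-fold, all under 2-fold. The table call of Trim35 rests on the probe that stands for the gene, and its second kept probe was not called there. With the table's columns scaled to a median ratio of 1, the 12 h calls were 8 higher and 3 lower among the members and 2007 higher and 2970 lower among all genes, beside 2889 and 2227 without that scaling. Without the 3 members that passed the filter at a single time, the scanner counts were 5 higher and 4 lower at 6 h and 12 higher and 6 lower at 12 h. The table counts were then 6 higher and 1 lower at 6 h and 8 higher and 2 lower at 12 h. Of these counts of members, the 13 of 38 higher at 12 h in the scanner values lay furthest above the share of all genes. Median log2 changes of all 38 members were -0.29 at 6 h and 0.24 at 12 h in the scanner values, beside -0.06 and -0.03 over all genes, and 0.05 and 0.08 in the value table, beside 0.14 and 0.22 over all genes. With genes below background set at their bounds the scanner medians were -0.34 and 0.24. With the slide as a block, a fit in which the 0 h arrays are joined to the 12 h arrays through the 1 array of 6 h on their slide, the 12 h median was -0.27.

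**Figure D1:**
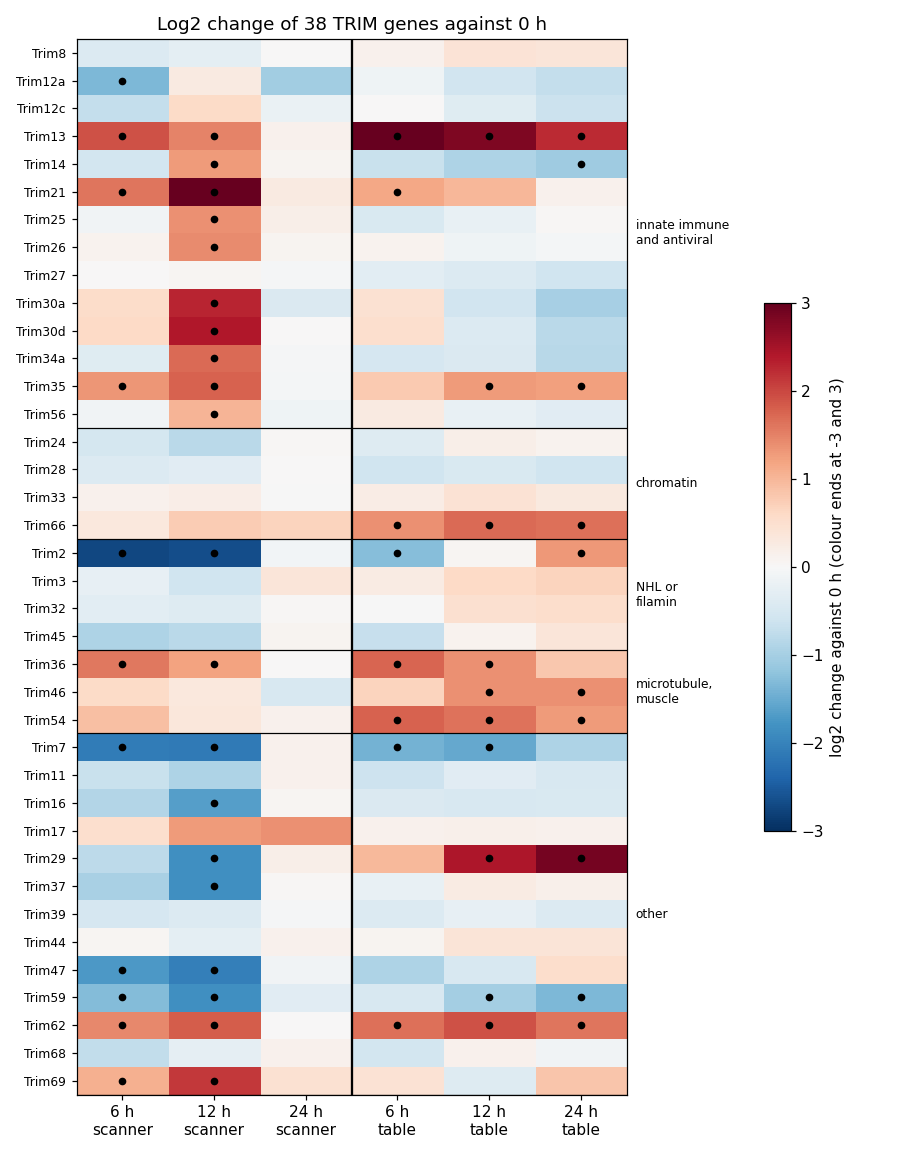
Log2 change of each of the 38 measured TRIM genes (rows, by class) at 6, 12 and 24 h against 0 h, from limma, in the scanner values (left block) and the value table (right block). Dots mark genes called at an adjusted p under 0.05 and at least 2-fold. Trim13, Trim36 and Trim62 are red with dots at 6 h and 12 h in both blocks, while Trim29 is blue at 12 h in the left block and red in the right.

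Members of innate immune and antiviral signalling moved most between the scanner arrays labelled 6 h and those labelled 12 h, a step that the value table did not show. The class is a list drawn up with earlier results of these data known, so its counts and medians depend on which members it holds. Of 14 measured members of this class, 3 were called higher and 1 lower at 6 h against 0 h, with a median log2 change of -0.05, and 10 were called higher and 0 lower at 12 h, with a median of 1.40. Set against 6 h, 12 h samples had 10 of the 14 called higher, with a median log2 change of 1.40, where 4.88% of all genes were called higher and the median over all genes was 0.03. Over all 38 members, 11 were called higher at 12 h against 6 h, the other being Trim69, which passed the filter only at 12 h, and 1 was called lower, where 2.1% of all genes were. The member called lower was Trim29 (-1.04). Trim29 and Trim62 (0.37, not called) are described below in immune signalling but were not placed in the class. With the slide as a block, a contrast that rests on the 4 arrays of slide 2, the class median was 1.43 and all 11 rises were called. The value table gave a class median of -0.24 for the same contrast, with 0 of the 14 called higher and 1 called lower. It called 2 members of the family higher at 12 h against 6 h, where 3.07% of all genes were, and 1 lower, where 2.73% were. Without the members that passed the filter at a single time it called 1 higher and 1 lower. With its columns scaled to a median ratio of 1 it called 2 higher and 2 lower among the members, and 362 higher and 715 lower among all genes, beside 565 and 502 without that scaling.

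Trim21 is a cytosolic receptor that binds antibody on incoming virus and ubiquitinates it. Its log2 level was -0.17, -0.20 and -0.17 in the 0 h samples, 1.47, 1.38 and 1.44 in the 6 h samples and 3.35, 3.18 and 3.39 in the 12 h samples. All 12 h samples lay above all 6 h samples, and these above all 0 h samples. Trim21 was 3.05-fold higher at 6 h (log2 change 1.61 ± 0.0605 SE, limma adjusted p = 3.85e-09) and 11.2-fold higher at 12 h (3.49 ± 0.0605, adjusted p = 1.47e-11), and the step of 1.88 from 6 h was itself called (adjusted p = 6.57e-09). The ratios in the value table were 1.00, 0.981 and 1.14 at 0 h, 2.55, 2.12 and 2.32 at 6 h and 2.18, 2.01 and 1.99 at 12 h. There too both times lay above 0 h without overlap, but 12 h and 6 h overlapped, with a log2 difference of -0.17 (limma adjusted p = 0.103). Trim21 was called higher at 6 h in the table (1.16) and fell just short of 2-fold at 12 h (0.99), and quantile normalisation brought the 6 h value to 0.69.

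Trim30a, which in the mouse lowers signalling from Toll-like receptors by driving the loss of TAK1-binding adaptors, and its neighbour Trim30d had like values. The log2 level of Trim30a was 3.16, 3.16 and 3.12 at 0 h, 3.78, 3.64 and 3.66 at 6 h and 5.45, 5.54 and 5.31 at 12 h. That of Trim30d was 1.48, 1.52 and 1.49 at 0 h, 2.22, 1.95 and 2.08 at 6 h and 3.91, 3.73 and 4.06 at 12 h. No 2 of these times overlapped in either gene. Both were called higher at 12 h against 0 h, at 4.87-fold for Trim30a and 5.29-fold for Trim30d (limma adjusted p = 2.45e-10 and 1.88e-09), and not at 6 h, where the log2 changes were 0.55 and 0.59. The table ratios of Trim30a were 0.695, 0.688 and 0.611 at 12 h, against 1.43, 1.38 and 1.25 at 6 h, so every 12 h sample lay below every 6 h sample. The log2 difference of -1.03 was called lower in the table (limma adjusted p = 6.73e-06), opposite to the 1.74 of the scanner values. That table call fell below 2-fold without 6 h replicate 1 (-0.99), without 12 h replicate 3 (-0.97), with the slide as a block (-0.93) and as the mean of both Trim30a probes (-0.74). Trim30d had a table difference of -0.92 (adjusted p = 1.95e-05), just under 2-fold. Over all genes 0.826% were called in opposite directions by the sources in this contrast. No member was called in the same direction by both at 12 h against 6 h, where 0.31% of all genes were called higher in both and 0.103% lower.

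Trim25, the ligase that in human cells marks the RNA sensor RIG-I for activation, gave different values by probe. The probe with the higher signal, which stands for the gene, had log2 levels of 4.27, 4.23 and 4.27 at 0 h, 4.17, 4.13 and 4.15 at 6 h and 5.50, 5.85 and 5.57 at 12 h. The 12 h samples stood apart above all others, and the call was 2.61-fold higher at 12 h (log2 change 1.38 ± 0.0769, limma adjusted p = 6.12e-08) with -0.11 at 6 h. Quantile normalisation gave 0.98 at 12 h, under 2-fold. The second probe was called higher at both times, by 2.55 at 6 h and 4.22 at 12 h on the log2 scale, and by 1.37 at 6 h in the value table. The first probe had log2 changes of -0.45 and -0.22 in the table. Among the 15 members with several kept probes, 0 had probes called in opposite directions within a source.

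Trim26, Trim34a, Trim14 and Trim56 were also called higher at 12 h against both 0 h and 6 h in the scanner values. Trim26, a ligase described in antiviral signalling, had log2 levels of -0.49, -0.56 and -0.46 at 0 h, -0.38, -0.45 and -0.36 at 6 h and 0.96, 0.89 and 0.89 at 12 h. Trim34a, from the same chromosome 7 cluster as Trim30a, had -1.30, -1.09 and -1.43 at 0 h, -1.58, -1.68 and -1.67 at 6 h and 0.24, 0.68 and 0.33 at 12 h. In both genes every 12 h sample lay above every sample of 6 h and 0 h. Trim14, which in human cells joins the mitochondrial adaptor MAVS, reached -1.26, -1.35 and -1.40 at 0 h, -2, -1.82 and -1.81 at 6 h and -0.13, 0.10 and -0.14 at 12 h, so that the 6 h samples lay below and the 12 h samples above those of 0 h. Log2 changes at 12 h against 0 h were 1.41 for Trim26, 1.69 for Trim34a and 1.28 for Trim14, with limma adjusted p of 5.52e-10, 2.67e-07 and 1.14e-07. Against 6 h they were 1.31, 2.06 and 1.83, with limma adjusted p of 6.74e-09, 2.67e-07 and 4.12e-08. Trim56, a ligase described in the STING pathway, was at the edge of the call: its log2 change at 12 h was 1.01 against 0 h and 1.11 against 6 h, and the first fell below 2-fold (0.99) without 0 h replicate 3, without 12 h replicate 1 or without 12 h replicate 2.

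Trim12a and Trim12c are mouse relatives of primate TRIM5, a factor that traps retroviral capsids. Trim12c had log2 levels of -0.06, 0.02 and -0.08 at 0 h, -0.64, -0.96 and -0.66 at 6 h and 0.50, 0.39 and 0.70 at 12 h, with no overlap between the 3 times. The difference of 1.28 between 12 h and 6 h was called (limma adjusted p = 3.22e-06), and those against 0 h, -0.71 at 6 h and 0.57 at 12 h, were under 2-fold. Trim12a, well above background on 2 of 3 arrays at 6 h, had -3.25, -3.29 and -2.28 at 0 h, -4.17, -4.48 and -4.22 at 6 h and -2.81, -2.69 and -2.48 at 12 h. It was called lower at 6 h against 0 h (-1.35, limma adjusted p = 0.00161) and higher at 12 h against 6 h (1.63, adjusted p = 0.000936), while 12 h and 0 h overlapped. With background correction by normexp on the median signal these 2 values were -0.49 and 0.73.

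In the value table the mean of these genes at 12 h lay below that of 0 h. The ratios of single samples at 12 h were 0.522, 0.563 and 0.5 for Trim14, against 1.04, 1.00 and 0.966 at 0 h, and 0.743, 0.75 and 0.764 for Trim12c, against 0.865, 1.00 and 1.05 at 0 h. Trim34a read 0.672, 0.618 and 1.07 at 12 h, against 1.12, 1.00 and 0.998 at 0 h, so that these groups overlapped. Log2 changes at 12 h were -0.92 for Trim14, -0.36 for Trim12c, -0.44 for Trim34a, -0.12 for Trim26, -0.22 for Trim56 and -0.58 for Trim12a, and none of these 6 was called.

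**Figure D2:**
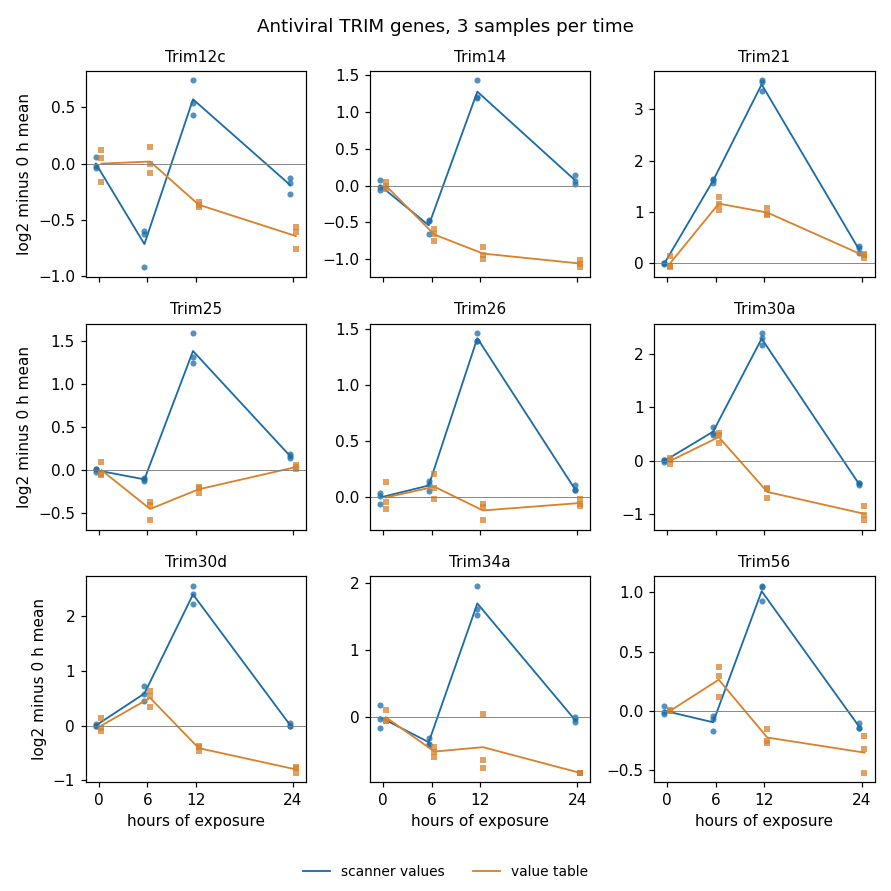
Log2 values of 9 antiviral TRIM genes in each sample, minus the gene's 0 h mean, against hours of exposure, with blue circles for scanner values, orange squares for the value table and lines through the group means. Vertical scales differ between genes. In the scanner values each gene is highest at 12 h and within 0.43 of its 0 h mean at 24 h. In the value table the 12 h means of Trim12c, Trim14, Trim25, Trim26, Trim30a, Trim30d, Trim34a and Trim56 lie below 0.

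The step between 6 h and 12 h was also read by promoter match, as a description with no test. In the scanner values 7 of the 8 members with the interferon-stimulated response element were called higher in the arrays labelled 12 h than in those labelled 6 h, with a median log2 change of 1.74. The other one, Trim2, was below background at both times, so its change cannot be read. Of 20 members whose window held no match, 18 were measured at both times, with a median of -0.01, and Trim25 and Trim56 were called higher. Trim69 of the same 20 was called too, but only as a bound, and Trim7 was below background at both times. Of 10 members with no window 1 was called higher, Trim14. Over all genes tested, 17.8% of 365 genes with a match and 4.54% of 8974 genes without one were called higher in this contrast, with medians of 0.18 and 0.03. By the deposited ratios, 1 of the 8 matched members, Trim2, was called higher and 1, Trim30a, was called lower, with a median of -0.30. Over all genes the table called 3.56% of the 365 matched genes higher and 6.58% lower, with a median of 0.07, and 3.58% and 2.36% of the 8974 without a match, with a median of 0.12.

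**Figure D3:**
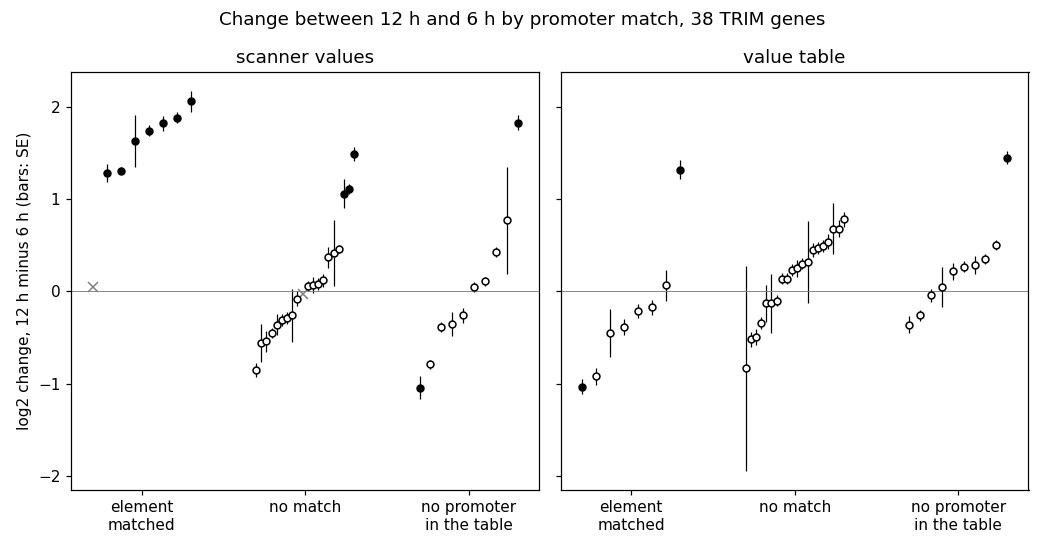
Log2 change at 12 h minus 6 h of the 38 TRIM genes (points, with SE from limma), by whether the interferon-stimulated response element was matched in the promoter window, for the scanner values (left) and the value table (right). Filled points are called, and grey crosses in the left panel mark Trim2 and Trim7, which were below background at both times and have no readable change. In the scanner values the other 7 matched genes lie between 1.28 and 2.06.

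Trim13 and Trim35, also of the innate class, took another course and were higher in both sources. Trim13 is a ligase of the endoplasmic reticulum membrane. It had log2 levels of -0.29, -0.24 and -0.15 at 0 h, 1.71, 1.64 and 1.73 at 6 h and 1.29, 1.30 and 1.15 at 12 h, so 6 h was the highest time with no overlap. Its log2 changes were 1.92 ± 0.0586 at 6 h and 1.48 ± 0.0586 at 12 h (limma adjusted p = 8.77e-10 and 4.49e-09). In the value table its ratios were 1.00, 0.946 and 1.04 at 0 h, 9.53, 9.01 and 8.02 at 6 h and 7.09, 7.21 and 6.63 at 12 h, again with 6 h above 12 h and 12 h above 0 h in every sample. Those changes, 8.89-fold and 7.02-fold, exceed the 3.79-fold and 2.78-fold of the scanner values. Trim35 had log2 levels of 0.84, 0.83 and 0.76 at 0 h, 2.14, 2.07 and 2.19 at 6 h and 2.57, 2.64 and 2.49 at 12 h, and table ratios of 0.986, 1.00 and 1.02 at 0 h, 1.82, 1.66 and 1.71 at 6 h and 2.44, 2.46 and 2.42 at 12 h. In both sources 12 h lay above 6 h and 6 h above 0 h in every sample. At 12 h it was 3.38-fold higher by the scanner (limma adjusted p = 6.13e-10) and 2.43-fold higher by the table (7.29e-09), and at 6 h it was called by the scanner alone (1.32, against 0.79 in the table). The second kept probe of Trim35 was called higher by the scanner at 6 h (1.14) and 12 h (1.29). By the table it was called at no time, with 0.43 at 6 h, 0.75 at 12 h and 0.94 at 24 h. The second probe of Trim13 was called higher at 6 h and 12 h in both sources.

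Trim8, which modulates cytokine signalling through SOCS1, and Trim27, a ligase of nuclear and endosomal proteins, were called in neither source. Their log2 changes at 6 h and 12 h ran from -0.41 to 0.06 in the scanner values and from -0.42 to 0.40 in the value table.

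Outside the antiviral class, 2 members rose in both sources at both times. Trim36, a ligase that binds microtubules, had log2 levels of -0.82, -0.83 and -0.71 at 0 h, 0.89, 0.73 and 0.79 at 6 h and 0.45, 0.46 and 0.35 at 12 h. Its table ratios were 1.09, 1.00 and 0.981 at 0 h, 3.59, 3.73 and 3.00 at 6 h and 2.79, 2.84 and 2.39 at 12 h. In both sources 6 h was highest and no 2 of these times overlapped. The 6 h change was 3.01-fold by the scanner (limma adjusted p = 2.08e-09) and 3.35-fold by the table (5.9e-08). Trim62, which in mouse dendritic cells ubiquitinates the fungal-signalling adaptor CARD9, had log2 levels of -2.36, -2.46 and -2.46 at 0 h, -0.73, -1.17 and -1.06 at 6 h and -0.59, -0.76 and -0.49 at 12 h. Its ratios were 0.995, 1.00 and 1.00 at 0 h, 3.35, 2.76 and 3.36 at 6 h and 4.16, 3.60 and 3.50 at 12 h. Both times lay above 0 h in every sample of both sources. The changes at 12 h were 3.52-fold by the scanner (limma adjusted p = 1.41e-07) and 3.75-fold by the table (2.97e-08). Trim36 at 12 h fell below 2-fold with normexp (0.88) in the scanner values and with quantile normalisation (0.89) in the table, and Trim62 at 6 h fell below it with normexp (0.89).

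Trim2 and Trim7 were lower at 6 h in both sources, from levels near background. Trim2, a ligase known for its action on neurofilament in mouse neurons, had log2 levels of -3.17, -3.61 and -3.92 at 0 h, -6.21, -6.06 and -6.58 at 6 h and -6.04, -6.27 and -6.38 at 12 h, with every exposed sample of these times lower. It was not well above background at 6 h or 12 h, and was so on 2 of 3 arrays at 0 h. Its fall is a bound: at least 1.73-fold lower at 6 h, which is under 2-fold, and at least 2.1-fold lower at 12 h. Trim2 passed the filter only through the 24 h arrays, so no p is given for these bounds. Its table ratios were 1.23, 0.925 and 1.00 at 0 h, 0.422, 0.439 and 0.437 at 6 h and 1.17, 0.980 and 1.11 at 12 h. The table thus called it lower at 6 h (-1.27) and higher at 12 h against 6 h (1.32). Trim7, a partner of the glycogen primer glycogenin, had log2 levels of -4.13, -3.64 and -3.66 at 0 h, -6.06, -5.36 and -6.29 at 6 h and -6.45, -6.31 and -5.05 at 12 h. Not well above background at 6 h or 12 h, it was at least 1.46-fold lower at 6 h and at least 1.77-fold lower at 12 h, both under 2-fold. The limma adjusted p of 0.00063 and 0.000535 belong to its fitted log2 changes, -2.09 and -2.12, and not to these bounds. Its table ratios were 0.976, 1.00 and 1.55 at 0 h, 0.339, 0.663 and 0.356 at 6 h and 0.454, 0.427 and 0.317 at 12 h, again all lower. With normexp the scanner changes of Trim2 were -0.60 at 6 h and -0.33 at 12 h and those of Trim7 were -0.35 and -0.19, and none was called.

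Trim59, a membrane-anchored member, was lower in both sources at 12 h. Its log2 level was -0.35, -0.31 and -0.31 at 0 h, -1.70, -1.34 and -1.86 at 6 h and -2.10, -2.10 and -2.32 at 12 h. The table ratios were 0.970, 1.00 and 1.03 at 0 h, 0.763, 0.698 and 0.676 at 6 h and 0.530, 0.520 and 0.441 at 12 h. In both sources every 12 h sample lay below every 6 h sample, and these below 0 h. Log2 changes at 12 h were -1.85 by the scanner (limma adjusted p = 1.54e-07) and -1.01 by the table (1.45e-06). The table value fell short of 2-fold without 0 h replicate 3 (-0.99), without 12 h replicate 3 (-0.93), with quantile normalisation (-0.79) and with the slide as a block (-0.78).

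Trim29, a RING-less member described as a brake on innate responses in mouse lung macrophages, moved in opposite directions in the sources. Its log2 level was -1.70, -1.45 and -1.74 at 0 h, -2.35, -2.48 and -2.43 at 6 h and -3.57, -3.16 and -3.64 at 12 h. Its table ratios were 1.01, 0.858 and 1.00 at 0 h, 1.92, 1.90 and 1.79 at 6 h and 5.09, 5.41 and 4.78 at 12 h. No 2 of these times overlapped in either source, with 12 h lowest by the scanner and highest by the table. At 12 h the log2 change was -1.83 by the scanner (limma adjusted p = 2.77e-07) and 2.42 by the table (6.64e-10), a disagreement found in 1.6% of all genes. With normexp the scanner change at 12 h was -0.67 and was not called.

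**Figure D4:**
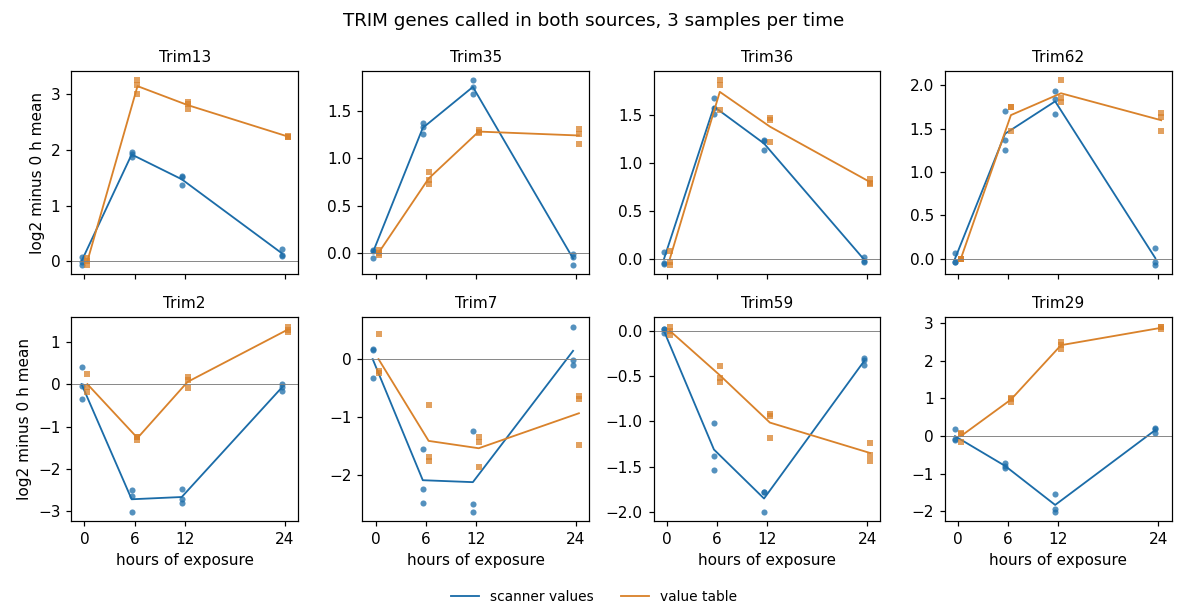
Log2 values of Trim13, Trim35, Trim36, Trim62, Trim2, Trim7, Trim59 and Trim29 in each sample, minus the gene's 0 h mean, against hours of exposure, with blue circles for scanner values, orange squares for the value table and lines through the group means. Vertical scales differ between genes. The first 4 genes lie above 0 at 6 h and 12 h in both sources, Trim59 and Trim7 lie below, and the Trim29 lines part.

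Other members were called in 1 source. In the scanner values Trim16, Trim37 and Trim47 were lower at 12 h. Trim16, a RING-less member that in human cells helps clear damaged lysosomes, had log2 levels of -0.27, -0.32 and -0.40 at 12 h, against 1.31, 1.37 and 1.32 at 0 h. Trim37, a ligase of peroxisomes and centrosomes, had -2.67, -2.65 and -2.56 at 12 h, against -0.76, -0.88 and -0.76 at 0 h. Trim47 had 0.29, 0.39 and 0.34 at 0 h, -1.25, -1.5 and -1.41 at 6 h and -1.65, -1.69 and -1.76 at 12 h. None of the 3 overlapped with 0 h, and the changes at 12 h were -1.66, -1.83 and -2.04 (limma adjusted p = 3.95e-10, 5.42e-09 and 6.51e-10). By the table the same changes were -0.47, 0.25 and -0.47. Trim69 was called higher by the scanner at 6 h and 12 h, but no array at 0 h or 6 h held it well above background, so no fold is given for 6 h and the 12 h value is a bound of at least 2.36-fold against 0 h and at least 1.97-fold against 6 h. It passed the filter only through the 12 h arrays, where it is high, so no p is given. Its table values spread widely, from 0.517 to 18.7 within the 24 h samples.

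Trim54, Trim46 and Trim66 were higher in the value table. Trim54 and Trim46 bind microtubules in muscle and in axons, and Trim66 is a chromatin cofactor best known from the testis. Ratios of Trim54 were 1.47, 1.00 and 0.862 at 0 h, 3.83, 3.90 and 3.35 at 6 h and 3.76, 3.30 and 3.09 at 12 h, with both times above 0 h (log2 changes 1.77 and 1.64, limma adjusted p = 1.97e-05 and 3.22e-05). Trim46 read 1.2, 0.784 and 1.00 at 0 h, 0.948, 2.22 and 1.82 at 6 h and 2.43, 2.59 and 2.52 at 12 h. Its 6 h samples overlapped with 0 h, replicate 1 being the low one, and its 12 h change of 1.36 (limma adjusted p = 0.00114) was 0.27 with the slide as a block. Trim66 read 1.13, 0.927 and 1.00 at 0 h, 4.95, 1.06 and 3.55 at 6 h and 3.40, 2.92 and 3.67 at 12 h. The 6 h call of Trim66 (1.38, limma adjusted p = 0.0182) fell to 0.93 and was lost without 6 h replicate 1, and was lost at 1.17 without 6 h replicate 3 and at 1.32 without 0 h replicate 2. On the scanner scale, where the 6 h replicate 2 spot of Trim66 was left out as an outlier, none of the 3 genes was called at 6 h or 12 h.

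The chromatin cofactors Trim24, Trim28 and Trim33 were called in neither source. Trim28, the corepressor that joins KRAB zinc-finger proteins to histone methylation, had log2 levels of 2.36, 2.30 and 2.33 at 0 h, 1.96, 1.81 and 1.98 at 6 h and 1.95, 2.02 and 1.97 at 12 h. Its exposed samples at these times were all lower, but by less than 2-fold (log2 changes -0.41 and -0.35, and -0.59 and -0.45 in the table). Trim33, its relative in transforming growth factor signalling, had changes of 0.14 at 6 h and 0.19 at 12 h by the scanner, and 0.23 and 0.44 by the table. Over the family, 25 of the 38 members were called in at least 1 of the 4 comparisons in either source and 13 were called in none. With the slide as a block Trim3 and Trim17, of the 13, were called lower at 12 h in the scanner values. Log2 changes of the 12 of those 13 that were measured at 0 h and at both times ran from -0.93 to 0.14 at 6 h and from -0.92 to 0.19 at 12 h by the scanner. Trim17, the other, was not above background at 0 h and was well above it on 1 of 3 arrays at 12 h, so no fold is given. Its change at 12 h was not called (limma adjusted p = 0.0687). By the table the changes of the 13 ran from -0.68 to 0.24 at 6 h and from -0.45 to 0.60 at 12 h.

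At 24 h the scanner arrays called 0 members higher and 0 lower against 0 h, where 0.695% of all genes were called higher and 0.141% lower. In the limma fit, the only tool run, 10 of the 38 had an unadjusted p under 0.05 and 2 an adjusted p under 0.05, namely Trim21 (log2 change 0.27) and Trim30a (-0.43). The value table called 8 members higher at 24 h, where 13.3% of all genes were, and 2 lower, where 13% of all genes were. The 8 were Trim2, Trim13, Trim29, Trim35, Trim46, Trim54, Trim62 and Trim66. The second kept probe of Trim35 was not called there (0.94). Trim13 had ratios of 4.75, 4.69 and 4.69 at 24 h, against 1.00, 0.946 and 1.04 at 0 h, and Trim29 had 6.81, 7.14 and 7.06, against 1.01, 0.858 and 1.00. Trim2 read 2.46, 2.52 and 2.67 at 24 h, against 1.23, 0.925 and 1.00 at 0 h. Every 24 h sample of these 3 genes lay above 0 h, with log2 changes of 2.24, 2.88 and 1.29. The limma adjusted p was 7.26e-10 for Trim13 and 1.97e-10 for Trim29. Trim2 passed the filter only through the 24 h arrays, so no p is given for it here. Without the members that passed at a single time, the table called 7 higher and 2 lower at 24 h. The 2 lower members were Trim59, with ratios of 0.370, 0.424 and 0.386 at 24 h, and Trim14, with 0.463, 0.480 and 0.498, all below 0 h. With the slide as a block their log2 changes, -1.35 and -1.06, were -0.94 and -0.83, and both calls were lost. No member was called higher at 24 h in both sources, where 0.0652% of all genes were. The antiviral class had a median log2 change of -0.48 at 24 h in the table and -0.01 on the scanner arrays.

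Genes linked to TRIM function were read from lists. Of 25 measured genes of the type I interferon response, 13 were called higher and 0 lower at 6 h and 25 higher at 12 h by the scanner, with medians of 1.02 and 2.88, and at 12 h against 6 h 25 were called higher, with a median of 1.91. Over all genes the scanner called 10.2% higher and 15.9% lower at 6 h. It called 13.7% higher at 12 h and 4.88% higher at 12 h against 6 h. The table called 14 higher and 1 lower at 6 h, 11 higher and 3 lower at 12 h, and 0 higher and 13 lower at 12 h against 6 h, with a median of -1.04. Its shares over all genes were 13.3% higher and 11.8% lower at 6 h and 15.7% and 12.1% at 12 h. At 12 h against 6 h they were 3.07% higher and 2.73% lower. The antiviral Rsad2 had log2 changes of 3.29 by the scanner and 6.75 by the table at 6 h, and the ubiquitin-like modifier Isg15 had 2.89 and 3.90. Oasl1, which damps translation of Irf7 in the mouse, had 2.52 and 4. Among 15 measured genes of RNA and DNA sensing, 6 were called higher and 0 lower at 6 h and 9 higher at 12 h by the scanner. The rises at 6 h were led by Irf7 (1.92), the kinase Ikbke (1.85) and the ligase Traf6 (1.45). The table called 7 and 6 higher and 0 and 1 lower at these times. Ddx58, Ifih1, Dhx58 and Irf7 stood on both this list and the interferon list, so their counts are not separate.

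The E2 enzymes hand ubiquitin to ligases such as the TRIM proteins. Of 31 measured, 8 were called higher and 2 lower at 6 h by the scanner and 5 higher and 0 lower by the table, with medians of 0.66 and 0.63, where 10.2% and 15.9% of all genes were by the scanner and 13.3% and 11.8% by the table. Ube2l6, the E2 of Isg15, rose by 1.29 and 1.79 at 6 h, followed in the scanner values by Ube2d3 (1.13) and Ube2f (1.12). Ube2t and Ube2c, E2 enzymes of DNA repair and mitosis, were called lower at 6 h by the scanner alone, with log2 changes of -1.80 and -1.11. Of 6 measured TRIM proteins under other names, Mefv, which encodes the inflammasome protein pyrin, was called higher at 6 h in both sources (log2 changes 1.79 and 5.00, limma adjusted p = 2.72e-10 and 7.49e-12), and Bspry was called lower in both (-1.47 and -2.05). Pml, the organiser of nuclear bodies, and Rnf135, a ligase of RIG-I, were called higher at 12 h by the scanner alone (1.78 and 2.00).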

How the data were processed

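Total RNA of 12 samples of bone marrow-derived dendritic cells, 3 at each of 0, 6, 12 and 24 h, was labelled with Cy3 and hybridised to 1-colour Agilent mouse arrays. The deposited scanner files held spot intensity on a linear scale, processed (background-subtracted and detrended) by Agilent Feature Extraction 9.1.3.1, per the file headers and the submitters' processing notes. The value table deposited by the authors held a linear ratio to the median of each probe at 0 h, with a lowest value of 0.01. Its scaling between columns and the genome build are not given in the sources used here.

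Control spots and 732 outlier spots were left out. Of the outlier spots 628 lay on the array of 6 h replicate 2, and the next highest number on an array was 42, at 6 h replicate 3. Scanner intensity was taken as log2 minus the array's 75th percentile, and the deposited ratio as log2. Spots of a probe were averaged, and 23496 of 41174 probes were well above background on every array of at least 1 time. Symbols came from RefSeq accessions matched to a GRCm38.p6 gene table, which named 22951 of the 41174 probes, and a gene was represented by its kept probe of highest mean. Probes without a symbol counted under their own accession, which gave 18407 genes.

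The package limma (version 3.58.1, under R 4.3.3 with the data.table package, version 1.17.8) fitted the 4 group means to the 12 arrays, once per source, with two-sided p-values adjusted by Benjamini-Hochberg over all genes and errors given as SE. Comparisons against 0 h share the 0 h samples. The number of arrays limits the precision. The fit was tested on simulated data. The deposited files hold no mean-signal column, so the planned normexp correction on that column was replaced by the median signal. Alternatives were other scalings, normexp, probe means, no filter on dim probes, no minimum fold, the slide or the replicate number as a block, and each replicate left out. The rule for naming genes took every member called in any comparison, with per-sample values for those called in both sources or in several comparisons, plus 8 set members, and from each pathway list the 3 largest called rises and falls at 6 h by the scanner. The members and lists were chosen with earlier results of these data known. Bounds ("at least") set a probe that is not well above background at the lowest signal among probes that are, or at its own signal where that is higher. The motif letters searched in promoters were textbook consensus half-sites and were not taken from the deposited files.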

Additional observations from a re-analysis of the deposited data

Results flagged for a closer look

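Trim29 and Trim30a differed between 12 h and 6 h by limma's contrast of these times, in opposite directions in the 2 sources. The log2 change at 12 h against 6 h was -1.04 in the scanner values and 1.45 in the value table for Trim29, and 1.74 in the scanner values and -1.03 in the value table for Trim30a. In each source and for each gene all 3 samples at 12 h lay on one side of all 3 samples at 6 h. With the slide as a block the scanner change of Trim29 was -0.91 and the table change of Trim30a was -0.93, both under 2-fold, so in each gene 1 of the opposed calls was lost. Whether the arrays of these times carry the right labels was not tested.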

How the results depend on the processing

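Recomputed under the alternatives, 154 counts of members called in the scanner values stayed within 1.5 times the reported count and 12 did not, while 127 of the value table stayed within it and 25 did not. No result that was called changed sign under the alternatives run. Without a minimum fold the scanner values gave 11 higher and 19 lower at 6 h, 17 lower at 12 h, 1 higher and 1 lower at 24 h, and 12 lower at 12 h against 6 h. Over all genes that setting called 32.1% higher and 39.6% lower at 6 h, 39.5% lower at 12 h, 2.29% and 1.28% at 24 h and 21.2% lower at 12 h against 6 h. The value table then gave 14 higher and 16 lower at 6 h, 15 and 15 at 12 h, 16 and 14 at 24 h, and 14 and 9 at 12 h against 6 h, beside 40.9% and 30.3%, 47.1% and 26.8%, 41.3% and 31.2%, and 31.1% and 16.9% of all genes. Normexp on the median signal, chosen after seeing the data, left 1 lower at 6 h, 4 lower at 12 h and 0 lower at 12 h against 6 h in the scanner values. It also left fewer members higher: 4 at 6 h, beside 6, 9 at 12 h, beside 13, and 8 at 12 h against 6 h, beside 11. Over all genes normexp gave 1210 higher and 1367 lower at 6 h, beside 1871 and 2929. At 12 h it gave 1598 and 1466 over all genes, beside 2524 and 3108. At 24 h it gave 2 and 6, beside 128 and 26. For 12 h against 6 h it gave 430 and 147, beside 899 and 387. Quantile normalisation of the value table gave 5 higher and 1 lower at 12 h, 5 higher and 0 lower at 24 h and 0 lower at 12 h against 6 h, where over all genes it called 8.07% and 9.78%, 7.68% and 9.53%, and 1.04%, and scaling its columns to a median ratio of 1 gave 4 lower at 24 h and 2 lower at 12 h against 6 h. The mean of kept probes left 0 lower at 12 h against 6 h in the value table. The slide as a block gave 0 lower at 12 h against 6 h in each source, and in the value table, where it was added after seeing the data, 1 lower at 12 h and 1 lower at 24 h. In the scanner values the slide as a block gave 9 lower at 12 h, beside 7, the added calls being Trim3 and Trim17. The change of Trim3 was -1.10, against -0.60 without the block. Trim17, which was not above background at 0 h, had a fitted log2 change of -1.30 at 12 h, against 1.27 without the block, and neither is a readable fold. The cause of these shifts was not tested.

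Leaving out each replicate in turn gave 6 to 7 higher and 5 to 6 lower at 6 h, 12 to 14 higher and 7 lower at 12 h, 0 at 24 h, and 10 to 11 higher and 0 to 1 lower at 12 h against 6 h in the scanner values. In the value table it gave 5 to 7 higher and 2 lower at 6 h, 8 to 9 higher and 1 to 2 lower at 12 h, 8 higher and 2 to 4 lower at 24 h, and 2 higher and 0 to 2 lower at 12 h against 6 h. Whether replicate numbers pair the samples is not settled by their values. Deviations of same-numbered samples had a correlation over 0.1 in 2 of 18 pairs in the scanner values and 1 of 18 in the value table. Those of differently numbered samples did so in 0 of 36 pairs and 2 of 36 pairs. With the replicate block the counts were 6 higher and 5 lower at 6 h, 13 and 7 at 12 h, 0 and 0 at 24 h, and 11 and 1 at 12 h against 6 h in the scanner values, equal to those without it, and no count in the value table changed either. Over all genes the block gave 71 higher and 15 lower at 24 h in the scanner values.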
